A study of Mus musculus with 7 samples.

Results

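The genes described here are the type I interferon-stimulated genes, a list of 39 transcripts that cells induce when interferon-alpha or interferon-beta binds its receptor. Rows of the expression table were taken by gene symbol. A row was found for 38 of the 39, out of 19505 named genes, and Ifi44 was not analysed here. Each of the 38 had 1 probe set.

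The samples were microglia, the resident macrophages of the brain, sorted as live CD45-positive CD11b-positive cells and measured with 1 array each. The knockout arrays, 4 in all, came from 5xFAD;B2m-/- mice, which lack functional B2m. The wildtype arrays, 3 in all, came from 5xFAD;B2m+/+ mice. Mice of both genotypes were C57BL/6 and carried the 5xFAD transgenes, which are expressed from a neuronal promoter and produce amyloid plaques, so no array came from mice without the transgenes. Age, sex and litter are not given in the sources used here, and no label ties the arrays to separate mice. The p-values therefore describe the spread among these 7 arrays, some of which may be technical. The genotypes are called knockout and wildtype below. All values are log2 expression, and differences are knockout minus wildtype.

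Type I interferons bind a receptor made of Ifnar1 and Ifnar2 and activate the kinases Jak1 and Tyk2. Among their targets is Stat2, which joins Irf9 in the complex ISGF3. ISGF3 binds a promoter element called the interferon-stimulated response element (ISRE) and turns on genes that sense or block viruses. Amyloid plaques are known to induce part of this programme in a subset of microglia. The product of B2m pairs with MHC class I heavy chains, and mice without it make few CD8+ T cells.

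ISRE letters were common in the promoters of these genes. RefSeq promoter windows (GRCm38.p6, 250 bases before to 50 bases after each start) were held for 29 of the 38 genes. The core letters GAAANNGAAA, or TTTCNNTTTC for a match on the other strand, occurred in 16 of the 29 (55.2%), against 3.94% of the 15691 array genes with a window and 3.44% of all 32851 windows. The letters TTCNNNGAA, which form the gamma-activated site of interferon-gamma signalling and read the same on both strands, occurred in 5 of the 29 (17.2%), against 9.02% of array genes with a window. A match is a description of the sequence and not a measured binding site, and matches of both motifs may overlap. The stretches below are shown 5′ to 3′ on the gene's strand, with the ISRE letters in capitals, because they belong to the genes with the letters whose values are given array by array, and to the duplicate Ifit3b. Overlapping matches form 1 run of capitals.
Oas1a (chr5:120907515-120907560, minus strand): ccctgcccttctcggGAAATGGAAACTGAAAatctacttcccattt
Bst2 (chr8:71537572-71537617, minus strand): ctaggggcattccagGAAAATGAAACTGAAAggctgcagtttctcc
Ifitm3 (chr7:141010701-141010757, minus strand): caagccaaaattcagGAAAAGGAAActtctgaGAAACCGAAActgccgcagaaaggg
Isg15 (chr4:156200860-156200911, minus strand): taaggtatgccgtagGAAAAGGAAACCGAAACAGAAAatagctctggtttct
Ifit1 (chr19:34640770-34640828, plus strand): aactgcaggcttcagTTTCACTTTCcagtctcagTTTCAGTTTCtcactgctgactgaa
Ifit3 (chr19:34583358-34583431, plus strand): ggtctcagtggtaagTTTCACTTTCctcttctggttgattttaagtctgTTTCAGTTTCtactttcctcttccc
Ifit3b (chr19:34607754-34607827, plus strand): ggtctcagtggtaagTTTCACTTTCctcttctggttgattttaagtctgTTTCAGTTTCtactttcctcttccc
Rsad2 (chr12:26456548-26456587, minus strand): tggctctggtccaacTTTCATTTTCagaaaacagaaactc
Stat2 (chr10:128270261-128270300, plus strand): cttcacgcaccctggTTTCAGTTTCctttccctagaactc
Ddx58 (chr4:40239799-40239838, minus strand): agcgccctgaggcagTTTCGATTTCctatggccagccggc
Ifih1 (chr2:62646206-62646238, minus strand): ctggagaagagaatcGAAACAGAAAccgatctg

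Isg15 carried 3 overlapping matches and Oas1a and Bst2 carried 2 each. Ifit3 and Ifit3b are neighbouring duplicates on chromosome 19, and their windows share an identical run of 169 bases that includes both matches. Whether the array's probes separate their transcripts was not analysed here. The same limit applies to Slfn8, Ifi204, Ifi207, Oas1a, Phf11d and Ifitm3, which have close relatives in the mouse genome.

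The genotype labels were checked on B2m, which was 10.40, 10.56, 10.47 and 10.24 in the knockout arrays, against 13.42, 13.41 and 13.39 in the wildtype arrays. The background level was the 95th percentile of 5222 negative control rows. Of the 12 named microglia markers, 12 lay above it in all 7 arrays, and 15 of 15 T and NK cell markers lay below it throughout. Of 11 neutrophil markers 6 lay above it in all arrays and 5 in some. Of 9 monocyte markers 1 lay above it in all arrays and 4 in some, so these markers are taken up again below. Knockout replicate 4 stood apart on the second principal component (-21.67, against -4.06 to 8.81 for the other arrays). On the first component, wildtype replicate 1 (-19.14) lay farthest from the knockout arrays (-5.94 to 17.02). The count of interferon-stimulated genes with a small p is given with and without each array.

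Many interferon-stimulated genes did not exceed the array's background level. The background level, taken separately on each array, was 9.35 to 9.55. These rows are a rough guide, since some were bright. In all 7 arrays 16 of the 38 genes passed this level, 3 passed in some arrays and 19 in none. Of the 31 genes that were tested below, 16 to 19 passed it on each array. Of all 10004 tested genes, 4006 to 4633 did, so the list was not unusually dim among tested genes. The 16 were Bst2, Ifitm3, Lgals3bp, Trim30a, Sp100, Usp18, Herc6, Irf9, Phf11d, Ddx58, Ifih1, Ifi204, Ifi207, Slfn2, Slfn5 and Slfn8. Ifit1, Ifit2, Ifit3, Isg15, Rsad2 and Mx1, which are strongly induced in a full antiviral response, were among the 19.

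No interferon-stimulated gene passed the threshold between genotypes. Testing required a value over the median of named genes on 3 or more of the 7 arrays, which kept 31 of the 38 genes and 10004 genes in all. All 7 arrays exceeded that level for 27 of the 31. Ifit1, Isg15, Mx2 and Ifi27l2a passed with fewer arrays, and Isg15 and Ifi27l2a passed with 1 wildtype array each, so their place among the tested genes depended on knockout values. In limma 0 of the 31 had an adjusted p under 0.05, where 0.05% of all tested genes did (0.02% higher, 0.03% lower). At an unadjusted p under 0.05, 7 were higher (22.6%), against a background of 8.39% of all tested genes, and 0 were lower, against 3.54%. Their adjusted p lay between 0.318 and 0.400. Differences lay above 0 for 22 of the 31 and below 0 for 9, against 48.6% above and 51.4% below over all tested genes, with a median of 0.12 and a range of -0.29 to 0.59. The median over all tested genes was -0.006. The count of 22 and the median include Isg15 and Ifi27l2a, so they support nothing about the list as a set. Without the filter, 26 of the 38 differences lay above 0 and 12 below. Their median was then 0.114, against -0.028 over all 19505 named genes. The groups did not overlap, with knockout higher, for Slfn2, Rtp4 and Ifitm3, which is 3 of 31 (9.68%) against 7.1% of all tested genes. In the opposite direction there were 0, against 3.8%. The 95% confidence intervals reached 0.312 to either side of the difference at the median gene, and from 0.215 to 0.563 over the 31. The interval included a value 1.5-fold higher in knockout for 11 of the 31 genes and 1.5-fold lower for 1.

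**Figure D1:**
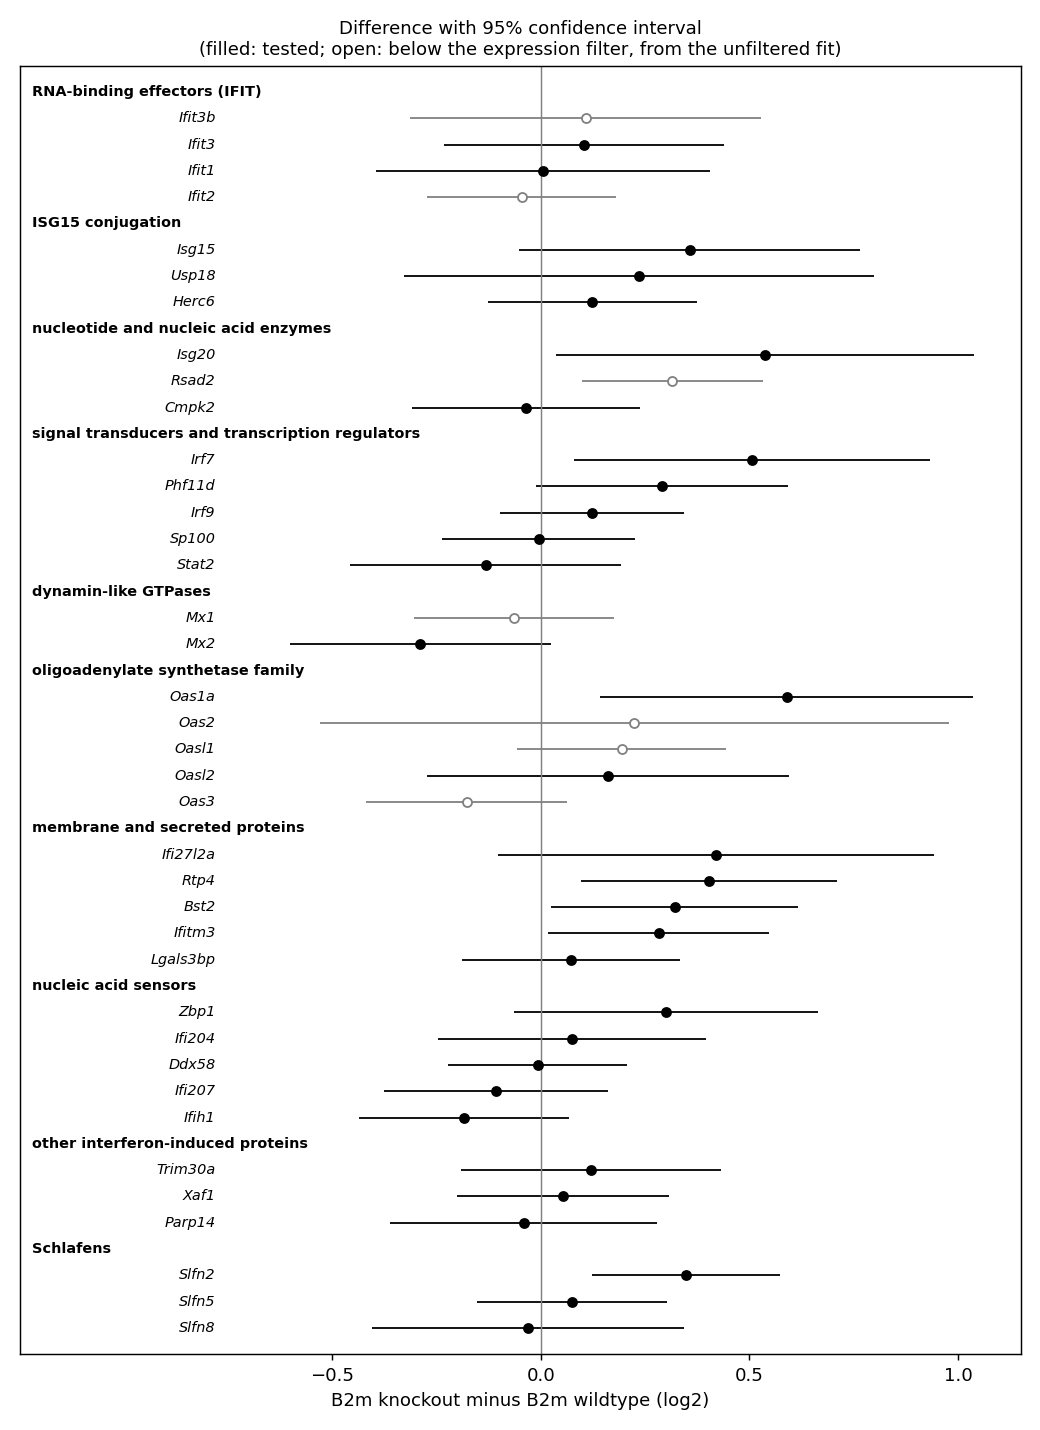
Difference between B2m knockout and B2m wildtype arrays for 38 interferon-stimulated genes, grouped by role, on the log2 scale (points, with 95% confidence intervals from limma as lines). Filled points are the 31 tested genes and open points the 7 genes below the expression filter, which come from a fit on all named genes. The tested genes range from -0.29 for Mx2 to 0.59 for Oas1a.

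The count of 7 depended on single arrays. It was 1 without wildtype replicate 1 (3.23%, against 4.79% of all genes tested in that fit), 2 without wildtype replicate 2 (6.45% against 5.84%) and 10 without wildtype replicate 3 (32.3% against 9.61%). It was 3 without knockout replicate 1 (9.68% against 7.02%), 3 without knockout replicate 2 (9.68% against 7.21%), 6 without knockout replicate 3 (19.4% against 6.36%) and 11 without knockout replicate 4 (35.5% against 8.59%). With wildtype replicate 1 and knockout replicate 4 both left out it was 6 (19.4% against 5.88%). Without wildtype replicates 1 and 2, which left 1 wildtype array assumed to vary like the knockout arrays, it was 0 and the background 2.17%. The median difference stayed above 0 in these fits, from 0.036 without wildtype replicates 1 and 2 to 0.187 without wildtype replicate 3.

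**Figure D2:**
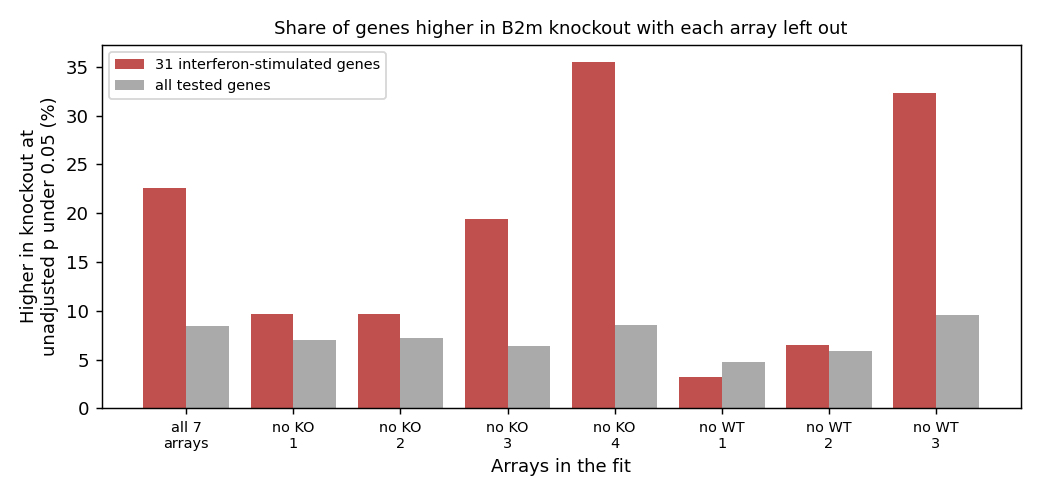
Share of genes (percent, from 0) higher in B2m knockout at an unadjusted p under 0.05 in limma, for the 31 interferon-stimulated genes (red) and all tested genes (grey), with all 7 arrays and with each array left out in turn. The red share runs from 3.23% without wildtype replicate 1 to 35.5% without knockout replicate 4, and the grey share from 4.79% to 9.61%.

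Slfn2 had the smallest p of the list. It encodes a Schlafen protein that maintains quiescence of T cells and monocytes in mice. Its values were 10.22, 10.23, 10.10 and 10.10 in the knockout arrays, against 9.73, 9.75 and 9.96 in the wildtype arrays. All knockout arrays lay above all wildtype arrays, and wildtype replicate 3 lay closest to the knockout arrays. The difference was 0.35 (SE 0.10, limma adjusted p = 0.318), 1.27-fold with a 95% confidence interval of 1.09 to 1.49, and it kept an unadjusted p under 0.05 in 17 of 18 alternative fits. The other Schlafen genes differed by 0.07 (SE 0.10) for Slfn5 and -0.03 (SE 0.17) for Slfn8, and their groups overlapped.

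Among the transcription regulators, Irf7, which ISGF3 induces and which amplifies interferon production, was 9.53, 9.43, 8.99 and 8.74 in the knockout arrays, against 8.43, 8.68 and 8.88 in the wildtype arrays. Knockout replicates 1 and 2 were high, and knockout replicate 4 lay below wildtype replicate 3. The difference was 0.51 (SE 0.19, limma adjusted p = 0.372). Only knockout replicate 1 passed the background level, so no fold is given. The ISGF3 subunit Irf9 was 10.23, 10.09, 10.28 and 10.09 in the knockout arrays, against 10.03, 9.996 and 10.13 in the wildtype arrays. Stat2, its partner, was 9.56, 9.19, 9.41 and 8.94 in the knockout arrays, against 9.54, 9.30 and 9.38 in the wildtype arrays. Values of both genotypes overlapped for Irf9 and Stat2, with differences of 0.12 (SE 0.10) and -0.13 (SE 0.15) and 95% confidence intervals of -0.10 to 0.34 and -0.46 to 0.19. Phf11d, a PHD finger protein of an interferon-induced family, differed by 0.29 (SE 0.14). Sp100, a nuclear body protein, differed by -0.01 (SE 0.10), a value that changed sign in 7 of 18 alternative fits.

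**Figure D3:**
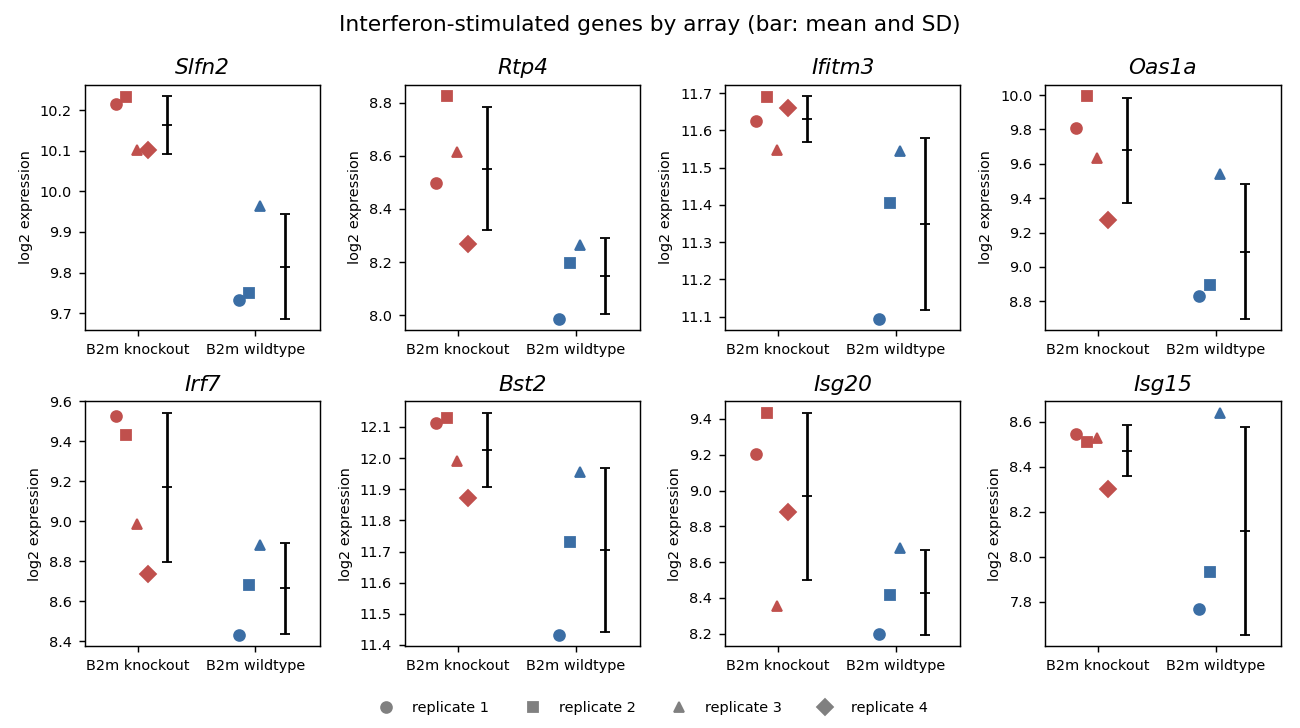
Log2 expression of 8 interferon-stimulated genes in each array of B2m knockout (red, left) and B2m wildtype (blue, right) microglia, with replicates shown by marker shape and the mean and SD as black bars. Each axis has its own range and does not start at 0. The groups do not overlap for Slfn2, Rtp4 and Ifitm3, by a very small margin for Rtp4 and Ifitm3, and wildtype replicate 3 is the highest wildtype array for all 8 genes.

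Membrane and secreted proteins lay above 0 in 5 of 5 genes, against 48.6% of all tested genes. At an unadjusted p under 0.05 in limma, 3 of the 5 were higher, against 8.39%. Rtp4, a chaperone for receptors at the cell surface that restrains interferon responses in mice, was 8.50, 8.82, 8.61 and 8.27 in the knockout arrays, against 7.99, 8.19 and 8.26 in the wildtype arrays. All knockout arrays lay above all wildtype arrays, but knockout replicate 4 and wildtype replicate 3 were nearly equal. Its difference was 0.40 (SE 0.14, limma adjusted p = 0.348), and no array passed the background level. Ifitm3, which blocks viral entry at endosomes and has been linked to gamma-secretase, was 11.63, 11.69, 11.55 and 11.66 in the knockout arrays, against 11.09, 11.40 and 11.54 in the wildtype arrays. The knockout arrays lay close together and wildtype replicate 1 was the lowest, while knockout replicate 3 (11.546) and wildtype replicate 3 (11.545) were nearly equal. The difference was 0.28 (SE 0.12, limma adjusted p = 0.400), 1.22-fold with a 95% confidence interval of 1.01 to 1.46. Without wildtype replicate 1 it was 0.155, with an unadjusted p over 0.05. Bst2, or tetherin, which holds budding virions at the cell surface, was 12.11, 12.13, 11.99 and 11.87 in the knockout arrays, against 11.43, 11.73 and 11.96 in the wildtype arrays. Here wildtype replicate 3 lay above knockout replicate 4, and the difference was 0.32 (SE 0.13, limma adjusted p = 0.394), 1.25-fold with an interval of 1.02 to 1.53. Without wildtype replicate 1 the Bst2 difference was 0.184, also with an unadjusted p over 0.05 in limma. Lgals3bp, a secreted glycoprotein that binds galectin-3, was 11.95, 11.71, 11.78 and 11.59 in the knockout arrays, against 11.55, 11.66 and 11.84 in the wildtype arrays. Its groups overlapped, with a difference of 0.07 (SE 0.12). Ifi27l2a, a small mitochondrial and membrane protein, differed by 0.42 (SE 0.24), and by 0.24 without wildtype replicate 1. It had no array above background and, as given above, passed the filter with 1 wildtype array. The count of 5 of 5 includes Ifi27l2a and therefore supports nothing about these proteins as a set.

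In the oligoadenylate synthetase family, which senses double-stranded RNA and activates RNase L, Oas1a had the largest difference of the 31 genes. It was 9.81, 9.99, 9.64 and 9.27 in the knockout arrays, against 8.83, 8.90 and 9.54 in the wildtype arrays. Wildtype replicates 1 and 2 were the lowest arrays, and wildtype replicate 3 lay above knockout replicate 4. The background level was passed by 3 knockout arrays and 1 wildtype array. Means were 9.68 ± 0.31 (SD, n = 4) in knockout and 9.09 ± 0.39 (SD, n = 3) in wildtype arrays. The difference was 0.59 (SE 0.20, limma adjusted p = 0.348), and it was 0.14 without wildtype replicates 1 and 2. Oasl2, a family member with ubiquitin-like domains, differed by 0.16 (SE 0.20). Oas2, Oas3 and Oasl1 did not pass the expression filter, and without it Oas3 differed by -0.18 and Oasl1 by 0.19. Oas2 was 9.20 in knockout replicate 2, against 7.38 to 7.75 in the other knockout arrays and 7.67 to 7.88 in the wildtype arrays.

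Of the enzymes acting on nucleotides and nucleic acids, Isg20, a 3′ to 5′ exonuclease, was 9.20, 9.43, 8.35 and 8.88 in the knockout arrays, against 8.20, 8.41 and 8.68 in the wildtype arrays. Knockout replicate 3 lay within the wildtype range. The difference was 0.54 (SE 0.23, limma adjusted p = 0.400), and no array passed the background level. The nucleotide kinase Cmpk2 differed by -0.04 (SE 0.12). Rsad2, or viperin, which makes a chain-terminating nucleotide, was 6.82, 6.78, 6.85 and 6.87 in the knockout arrays, against 6.39, 6.51 and 6.64 in the wildtype arrays. All knockout arrays lay above all wildtype arrays, but every value lay between the 53.1st and 63.2nd percentiles of the negative control rows, and the gene was not tested. Without the expression filter its difference was 0.32 (SE 0.10, limma adjusted p = 0.454).

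For the ISG15 conjugation genes, 3 of 3 differences lay above 0, against 48.6% of all tested genes. At an unadjusted p under 0.05 in limma there were 0, against 8.39% higher and 3.54% lower. Isg15 passed the filter with 4 knockout arrays and 1 wildtype array, so the count of 3 supports nothing about these genes as a set. Isg15, the ubiquitin-like modifier itself, was 8.55, 8.51, 8.53 and 8.30 in the knockout arrays, against 7.77, 7.93 and 8.64 in the wildtype arrays. Knockout replicates 1 to 3 spanned 8.51 to 8.55 and wildtype replicate 3 exceeded them all, so the difference of 0.36 (SE 0.18) rested on wildtype replicates 1 and 2. Without those arrays it was -0.17. Usp18, the protease that removes Isg15 and damps the receptor, was 10.65, 10.91, 10.33 and 9.75 in the knockout arrays, against 10.30, 9.76 and 10.46 in the wildtype arrays. The wildtype arrays lay within the range of the knockout arrays, with a difference of 0.24 (SE 0.25) and an interval of -0.33 to 0.80. Herc6, the main Isg15 ligase in mice, differed by 0.12 (SE 0.11).

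IFIT proteins bind viral RNA ends. Ifit1 was 8.62, 8.14, 7.82 and 7.98 in the knockout arrays, against 8.33, 7.93 and 8.15 in the wildtype arrays. The groups overlapped, and the difference was 0.01 (SE 0.18) with an interval of -0.39 to 0.41. Ifit3 was 8.43, 8.52, 8.33 and 8.02 in the knockout arrays, against 8.08, 8.07 and 8.52 in the wildtype arrays, also with overlap and a difference of 0.10 (SE 0.15). Ifit2 and Ifit3b were below the filter in all 7 arrays, with values of 6.795 to 7.001 and 6.69 to 7.22 in knockout and 6.81 to 7.05 and 6.43 to 7.19 in wildtype arrays.

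The cytosolic sensors did not share a direction. Ddx58, or RIG-I, was 9.59, 9.69, 9.64 and 9.74 in the knockout arrays, against 9.58, 9.67 and 9.78 in the wildtype arrays. Its arrays lay close together in both genotypes, with a difference of -0.01 (SE 0.10) and an interval of -0.22 to 0.21. Ifih1, or MDA5, was 9.82, 9.93, 9.83 and 9.98 in the knockout arrays, against 9.98, 10.29 and 9.95 in the wildtype arrays. Wildtype replicate 2 stood above the others, and the difference was -0.18 (SE 0.11). Zbp1, a sensor of Z-form nucleic acid, differed by 0.30 (SE 0.16). Ifih1 and Zbp1 lie on chromosome 2 with B2m, 195 and 269 tested genes away from it. The DNA-binding proteins Ifi204 and Ifi207 differed by 0.07 (SE 0.14) and -0.11 (SE 0.12).

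Mx1 and Mx2 encode dynamin-like GTPases that block influenza and other viruses, and both carry disabling mutations in C57BL/6 mice. The reference gene table lists both as transcribed pseudogenes. Mx1 was 5.47, 5.44, 5.76 and 5.599 in the knockout arrays, against 5.70, 5.67 and 5.53 in the wildtype arrays. These values lay between the 34.8th and 41.1st percentiles of the negative control rows, the lowest of any member relative to background. Mx2 had the most negative difference of the list, -0.29 (SE 0.14) (limma adjusted p = 0.453), with all values below background. The apoptosis factor Xaf1, the inflammasome regulator Trim30a and the ADP-ribosyltransferase Parp14 differed by 0.05, 0.12 and -0.04, with SEs of 0.12 to 0.14.

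The differences were also set beside the ISRE letters. Among tested genes whose windows hold the letters, 8 of 13 differences lay above 0 with a median of 0.075, and Oas1a, Ifitm3 and Bst2 had an unadjusted p under 0.05. Among those whose windows lack them, 9 of 11 lay above 0 with a median of 0.123, and Slfn2, Irf7 and Isg20 had an unadjusted p under 0.05. The other 7 tested genes had no window, with a median of 0.236. Isg15 is among the 13 and Ifi27l2a among the 7, and both were tested because of their knockout values. Over all tested genes, 48.6% lay above 0 and 8.39% were higher at an unadjusted p under 0.05. Both groups were small and no test was made between them.

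Within each genotype, part of the list varied together. After each genotype's mean was subtracted, the median Pearson correlation over 465 pairs of the 31 genes across 7 arrays was 0.297, against 0.004 over all pairs of tested genes. It exceeded 0.7 in 19.8% of pairs, against 7.88%. The median was 0.273 without knockout replicate 4 and 0.358 without wildtype replicate 1. Oas1a and Ifit3 had the closest pair (0.994), followed by Ifi204 with Phf11d (0.966) and Ifi204 with Slfn2 (0.956). These points share the normalization and the array. In the wildtype arrays, replicate 3 was the highest for 20 of 31 genes (64.5%, against 34.2% of all tested genes) and replicate 2 for 1. In the knockout arrays, replicate 4 was the lowest for 15 (48.4%, against 29.0%), and replicates 1 and 2 were the highest for 10 and 13. For 6 genes, Mx2, Ifih1, Sp100, Slfn5, Slfn8 and Parp14, the median correlation with the rest of the list was below 0, from -0.427 to -0.236. Their gene spans had a median of 32.2 kb, against 11.3 kb for the other 25 and 21.3 kb for all tested genes.

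Other measures also differed between the arrays. Median deviations of the 31 genes from each gene's mean were 0.20, 0.15, 0.02 and -0.06 in the knockout arrays and -0.09, -0.16 and 0.04 in the wildtype arrays. Endothelial and mural markers, which a clean CD45 and CD11b gate would leave out, were at -0.02, -0.09, -0.14 and -0.14 in the knockout arrays and 0.33, 0.40 and -0.17 in the wildtype arrays. Of their 16 tested markers 0 lay above 0, against 48.6% of all tested genes. At an unadjusted p under 0.05 in limma 5 were lower (31.2%, against 3.54%), and 0 passed after adjustment. Slco1a4, which is among the 5, and Tek passed the filter with 1 knockout and 2 wildtype arrays each. The place of both among the tested genes therefore depended on wildtype values. The summed linear level of endothelial and mural markers was 26821 to 29891 in knockout and 26657 to 36433 in wildtype arrays. Above background in all arrays were 7 of 17 markers, and 8 of 17 in none. Neutrophil markers were at -0.61, -0.03, 0.49 and 1.27 in the knockout arrays and -0.12, 0.10 and -0.58 in the wildtype arrays, with summed levels of 20816 to 51188 and 21499 to 30853. All 11 of them were above background in some array and 6 in all. Differences lay above 0 for 10 of the 11 neutrophil markers (90.9%, against 48.6% of all tested genes), with a median of 0.55. Of the 11, Camp was higher at an unadjusted p under 0.05 in limma (9.09%, against 8.39%). Monocyte markers were highest in knockout replicate 4 (0.81), and 5 of 7 tested lay above 0 (71.4%, against 48.6%). Plac8 (1.105, SE 0.30) and Chil3 (1.17, SE 0.47) were higher at an unadjusted p under 0.05 in limma (28.6%, against 8.39%), and Chil3 passed the filter with 1 wildtype array. No neutrophil or monocyte marker passed after adjustment. Deviations of all tested genes correlated with gene span, with Spearman's rho across genes of -0.243, -0.254, -0.197 and 0.222 in the knockout arrays and 0.361, 0.136 and -0.149 in the wildtype arrays. With the span trend removed, the median difference of the list was 0.068, and an unadjusted p under 0.05 was reached by 6 genes upward and by Mx2 downward. The part of other cell types and of span in these differences was not tested. In sorted pools, fewer expressing cells and less RNA per cell cannot be told apart.

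**Figure D4:**
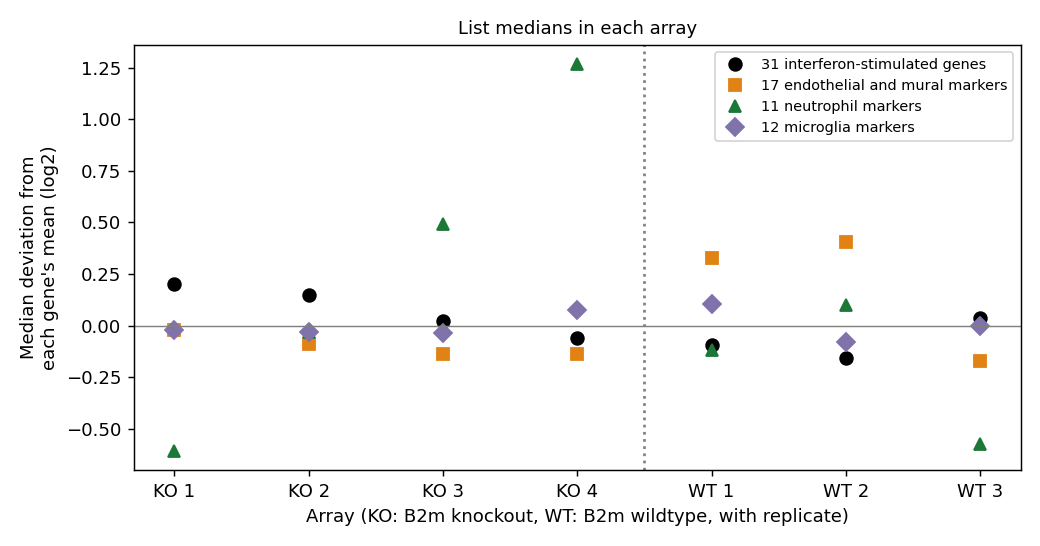
Median deviation from each gene's mean over the 7 arrays (log2), by array, for the 31 interferon-stimulated genes and for markers of endothelial and mural cells, neutrophils and microglia. The interferon-stimulated genes run from 0.20 in knockout replicate 1 to -0.16 in wildtype replicate 2, endothelial and mural markers are highest in wildtype replicates 1 and 2, and neutrophil markers are highest in knockout replicate 4.

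The signalling pathway upstream of these genes was set beside them. Type I interferon ligands had 0 of 16 genes above background in any array. Of the 4 that passed the expression filter, 0 lay above 0, against 48.6% of all tested genes, and the median was -0.14. Ifna1 passed the filter with 1 knockout and 2 wildtype arrays, so its place among the 4 depended on wildtype values. The count and median that include it therefore support nothing about the ligands as a set. Without the filter, the median over the 16 ligands was -0.069. Ifnz was lower at an unadjusted p under 0.05 (-0.40, SE 0.14, limma adjusted p = 0.348), as were 3.54% of all tested genes. Ifna1, Ifna5 and Ifna7 differed by -0.17, -0.10 and -0.04. Ifnb1, chosen after its values were seen, was 7.67, 7.56, 7.66 and 7.14 in the knockout arrays, against 7.48, 7.45 and 7.78 in the wildtype arrays, below the filter. Receptor and JAK-STAT genes had 6 of 14 differences above 0 (42.9%, against 48.6% of all tested genes) and a median of -0.03. At an unadjusted p under 0.05 in limma there were 0, against 8.39% higher and 3.54% lower over all tested genes. The phosphatases Ptpn6 and Ptpn11 differed by 0.23 (SE 0.12) and -0.22 (SE 0.12), the repressor Irf2 by -0.24 (SE 0.13) and the Stat inhibitor Pias3 by -0.17 (SE 0.12). Also chosen with values in view were the receptor subunits, at -0.13 (SE 0.12) for Ifnar1 and 0.02 (SE 0.10) for Ifnar2. Genes of nucleic acid sensing had 11 of 20 differences above 0 (55.0%, against 48.6%) and a median of 0.01. They too had 0 at an unadjusted p under 0.05 in limma, against the same 8.39% and 3.54%. The RNA receptor Tlr3 differed by -0.23 (SE 0.12), the RNase H2 subunit Rnaseh2c by 0.28 (SE 0.16), and the transcription factors Irf5 and Irf3 by 0.18 (SE 0.10) and 0.16 (SE 0.09).

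A second set of interferon-stimulated genes, outside the list of 39, was also counted. It shares Dhx58 with the genes of nucleic acid sensing and Psmb10 with the immunoproteasome genes below, so each of these is counted in both lists. Of 49 tested, 0 passed in limma. At an unadjusted p under 0.05, 9 were higher (18.4%, against 8.39%) and 0 were lower, against 3.54%. Of these 9, Phf11a passed the expression filter in 4 knockout and 0 wildtype arrays and Phf11c in 4 knockout and 1 wildtype array, so both were tested only because of their knockout values, and the counts that include them support nothing about the set. Differences lay above 0 for 35 (71.4%, against 48.6% of all tested genes), with Phf11a and Phf11c among them. The median was 0.07, against -0.006 over all tested genes. The groups did not overlap, with knockout higher, for 5 (10.2%, against 7.1%), again with Phf11a and Phf11c among them, and with knockout lower for 1 (2.04%, against 3.8%). Phf11c, a relative of Phf11d, was 8.49, 8.65, 8.44 and 8.66 in the knockout arrays, against 7.83, 7.97 and 8.21 in the wildtype arrays, and differed by 0.56 (SE 0.12, limma adjusted p = 0.265). Ms4a4c, a membrane-spanning protein of myeloid cells, was 9.28, 9.29, 9.31 and 9.48 in the knockout arrays, against 8.16, 8.79 and 8.99 in the wildtype arrays. All knockout arrays lay above all wildtype arrays for both genes, and no array passed the background level. Ube2l6, the conjugating enzyme for Isg15, differed by 0.70 (SE 0.21), and Phf11b by 0.41 (SE 0.14). For Ube2l6, wildtype replicates 1 and 2 were the lowest arrays (8.16 and 8.68). Its wildtype replicate 3 (9.23) lay above knockout replicate 4 (9.21), and only 1 knockout array and 0 wildtype arrays passed the background level.

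Genes more closely tied to interferon-gamma, and those of peptide presentation, were also counted. Interferon-gamma-induced GTPases and partners had 3 of 13 differences above 0 (23.1%, against 48.6% of all tested genes) and a median of -0.08. At an unadjusted p under 0.05 in limma there were 0 genes, against 8.39% higher and 3.54% lower over all tested genes. Gbp4, which lay below 0, passed the filter with 1 knockout and 2 wildtype arrays, so its place among the 13 depended on wildtype values. Gbp7 and Gbp3 differed by -0.49 (SE 0.23) and -0.33 (SE 0.18), Gbp2 by -0.19 (SE 0.12) and the class II transactivator Ciita by -0.23 (SE 0.12). Immunoproteasome and peptide transport genes had 8 of 11 above 0, against 48.6% of all tested genes, and a median of 0.15. At an unadjusted p under 0.05 in limma, 3 of them (27.3%, against 8.39%) were higher and 0 lower. The proteasome activator Psme2 differed by 0.33 (SE 0.12), and the subunits Psmb8, Psmb9 and Psmb10 by 0.43 (SE 0.16), 0.39 (SE 0.17) and 0.25 (SE 0.12). The difference between lists was not tested.

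**Figure D5:**
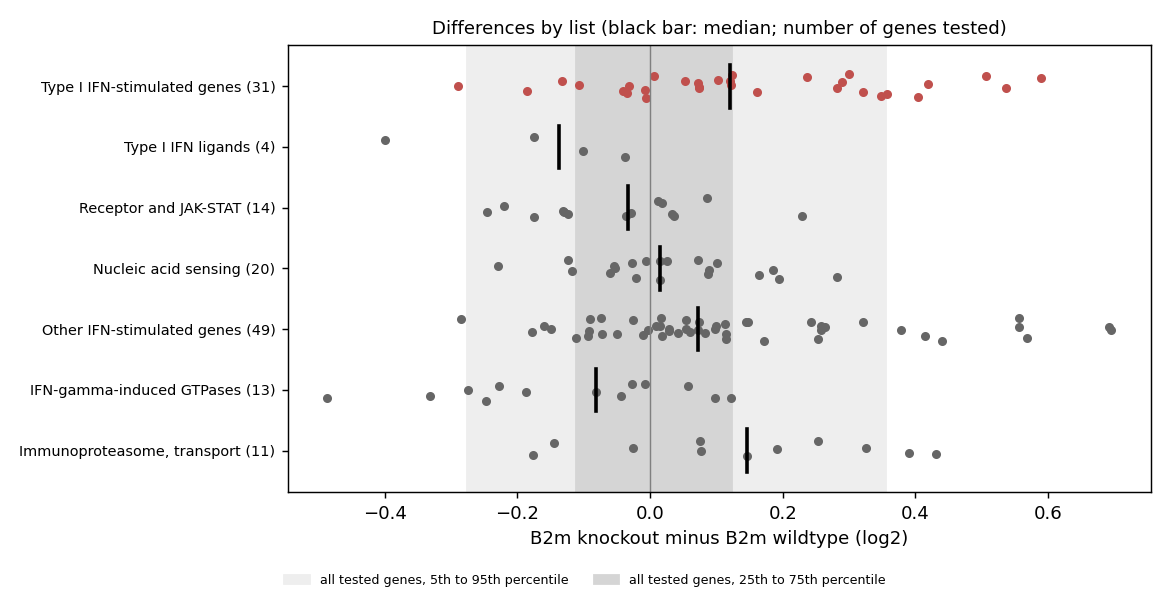
Difference between B2m knockout and B2m wildtype arrays (log2) for each tested gene of the type I interferon-stimulated list (red) and of 6 other lists (grey), with black bars at list medians and shaded bands for all tested genes. Vertical scatter within a list has no meaning. The red median lies at 0.12, that of ligands at -0.14 and that of interferon-gamma-induced GTPases at -0.08. The ligand median includes Ifna1, whose place among the tested genes depended on wildtype values. The red median includes Isg15 and Ifi27l2a, whose place depended on knockout values.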

How the data were processed

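Microglial RNA was measured on 1 array per sample, 4 B2m knockout and 3 B2m wildtype. The authors deposited log2 expression values that, per the submitters' processing notes, came from RMA in version 1.1 of Affymetrix Expression Console. The sources used here name no genome build. The table held 28846 rows from 3.57 to 14.34, with array medians of 7.68 to 7.75, and was not normalized again. A probe annotation gave 1 symbol for 19572 rows and none for 9274, all matched by Entrez identifier to a GRCm38.p6 gene table. The probe set with the highest mean was kept for 55 genes with several. Groups came from the genotype labels, and replicate numbers were given in accession order and do not pair arrays. The genotypes were compared by limma 3.58.1 under R 4.3.3 over all tested genes, with Benjamini-Hochberg adjustment and a threshold of 0.05, and the code was tested on simulated data. No set test was run. Members, lists and tests were chosen with earlier results of these data known. Values by array are given for members at an unadjusted p under 0.05, without overlap, or in a fixed role set, and up to 4 genes with the smallest p are named in each other list. Promoter windows came from RefSeq. Summed levels add values on the linear scale. The alternatives changed the filter, prior, weights, normalization, probe set rule, span trend or arrays used. For arrays, their number limits the precision.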

Additional observations from a re-analysis of the deposited data

Results flagged for a closer look

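Knockout replicate 4 was set apart for Isg15. At 8.30 it lay below the other 3 knockout arrays, which spanned 8.51 to 8.55, and the gap was 0.839 of the group's range, above Dixon's 95% critical value for 4 samples. It was the only 1 of 38 genes examined in the knockout group, and chance alone gives about 1 in 20 groups. The wildtype group, with 3 arrays, was not examined in this way.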

How the results depend on the processing

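No interferon-stimulated gene passed in limma under any of the 18 alternative fits (0 in each), of which 17 were planned and the joint removal of wildtype replicate 1 and knockout replicate 4 was chosen after seeing the data. The number higher at an unadjusted p under 0.05 ran from 1 to 11 when single arrays were left out. It was 4 of 19 with the stricter filter (70th percentile), where 13 differences lay above 0, and 0 without wildtype replicates 1 and 2. With the 99th percentile of control rows as background, 3 of 38 genes passed in all arrays and 32 in none. The number lower was 0 to 1 with single arrays left out, 1 with array weights (Ifih1) and 1 with the span trend removed (Mx2). The list's median ran from 0.036 to 0.187 over all 18. Medians of other lists that moved were those of ligands (-0.179 to -0.04 with single arrays left out, -0.221 without wildtype replicates 1 and 2), interferon-gamma-induced GTPases (-0.147 to -0.037 with single arrays left out, -0.012 without wildtype replicate 1 and knockout replicate 4), nucleic acid sensing (0.085 in that same fit), and, without wildtype replicates 1 and 2, other interferon-stimulated genes (0.003) and the immunoproteasome (0.003). Where fewer arrays were used, the fits had fewer samples, and otherwise the cause was not tested. No paired analysis was possible because the labels give no replicate numbers, and those used only name the arrays. Slfn2 kept an unadjusted p under 0.05 in 17 of 18 alternatives, Oas1a in 15 of 18, Rtp4 in 15 of 17, Irf7 in 12 of 17, Bst2 in 10 of 18, Isg20 in 9 of 17 and Ifitm3 in 9 of 18. Genes near the background level are measured with less certainty.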
